A study of Rattus norvegicus with 24 samples.

Results

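AMPA and NMDA receptors are the ionotropic glutamate receptors that carry most fast excitatory transmission in the retina, and their subunits are encoded by the Gria and Grin gene families. The 9 subunit genes Gria1, Gria2, Gria3, Gria4, Grin1, Grin2a, Grin2b, Grin2c and Grin2d were followed here through every array probe whose RefSeq accession maps to those symbols. Of the 33911 probes on the array, 10 met that rule and covered 8 of the 9 genes, with 2 probes each for Grin2b and Grin2c. Gria3 had no probe with a matching accession and has no value here.

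The retinas came from male Sprague Dawley rats, 6 per group, hybridized to 1 CodeLink whole genome array each. In the 1M STZ and 3M STZ groups diabetes was induced by an injection of streptozotocin (STZ), a toxin of the insulin-producing beta cell, 1 and 3 months before the retina was taken, and no insulin was given afterwards. The 1M Control and 3M Control groups were rats of corresponding age that received the vehicle alone. All 24 arrays measured whole retina, in which fewer cells of a type and less RNA per cell cannot be told apart.

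Glutamate is released by photoreceptors, bipolar cells and ganglion cells. AMPA receptors, tetramers built from the products of Gria1 to Gria4, open quickly and sit on OFF bipolar, horizontal, amacrine and ganglion cells. NMDA receptors need glutamate together with glycine or D-serine, pass calcium, and always contain the product of Grin1 with GluN2 subunits (Grin2a to Grin2d) that set their kinetics. In the inner retina they are found on ganglion and amacrine cells, and their overactivation is a known route to excitotoxic death of these neurons.

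Values are given as scaled intensity, the background-subtracted intensity of a probe divided by the median of the rat probes on the same array. A probe was tested where its median scaled intensity over the 24 arrays exceeded an intensity limit of 0.554, which is the 35th percentile over the array's probes, and calls required at least a 1.2-fold difference and, in limma, a p below 0.05 after Benjamini-Hochberg adjustment over all 22025 tested probes. Under that rule 8 of the 10 subunit probes were tested, and the Gria1 probe and the Grin2b probe GE1205376 were not. Different probes bind their targets with different efficiency, so a level is compared only between groups of the same probe.

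The 3 month arrays differed from the 1 month arrays at the dim end. The 62 probes for bacterial genes, which have no target in rat RNA, had a median scaled intensity of 0.113 in 1M Control, 0.0862 in 1M STZ, 0.683 in 3M Control and 0.557 in 3M STZ. Over all tested probes the median log2 difference between STZ and control was 0.013 at 1 month and 0.44 at 3 months, and the shift at 3 months became 0.16 after quantile normalization and -0.17 with no scaling. Of the probes called at 3 months, 93.4% were higher in STZ, against 77.7% after quantile normalization. The array labelled 3M Control 2 stood apart: its log2 values correlated with those of the other 5 controls at a median r of 0.842. Arrestin (Sag) and peripherin (Prph2), which mark photoreceptors, lay far above the limit in every group, with mean log2 scaled intensities from 6.85 to 7.38 and from 6.52 to 7.09.

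Promoter sequences were available from RefSeq (assembly GRCr8) for 4 of the 9 genes, as windows from 250 bases before to 50 bases after the start of the transcript. The windows of Gria4 and Grin2c, each with a probe called lower at 3 months (as Grin2a also had, while the other Grin2c probe was called higher), and of Grin1, the subunit every NMDA receptor contains, are shown 5′ to 3′ on the strand of the gene with each CG dinucleotide in capitals. Gria4 lies on the minus strand at chr8:10319832-10320131, Grin1 on the minus strand at chr3:28528705-28529004 and Grin2c on the minus strand at chr10:101005089-101005388.
Gria4: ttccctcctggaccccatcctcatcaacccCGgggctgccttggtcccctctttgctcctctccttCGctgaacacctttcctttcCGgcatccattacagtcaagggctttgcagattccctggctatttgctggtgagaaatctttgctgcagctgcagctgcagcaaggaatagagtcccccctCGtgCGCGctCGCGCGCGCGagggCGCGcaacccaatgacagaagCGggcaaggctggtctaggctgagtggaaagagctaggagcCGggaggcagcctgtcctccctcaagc
Grin1: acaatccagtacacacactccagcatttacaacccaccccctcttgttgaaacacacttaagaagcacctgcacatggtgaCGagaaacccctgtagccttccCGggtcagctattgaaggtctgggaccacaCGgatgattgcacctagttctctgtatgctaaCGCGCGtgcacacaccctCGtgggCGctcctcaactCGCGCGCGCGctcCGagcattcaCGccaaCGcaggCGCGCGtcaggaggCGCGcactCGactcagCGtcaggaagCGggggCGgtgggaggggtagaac
Grin2c: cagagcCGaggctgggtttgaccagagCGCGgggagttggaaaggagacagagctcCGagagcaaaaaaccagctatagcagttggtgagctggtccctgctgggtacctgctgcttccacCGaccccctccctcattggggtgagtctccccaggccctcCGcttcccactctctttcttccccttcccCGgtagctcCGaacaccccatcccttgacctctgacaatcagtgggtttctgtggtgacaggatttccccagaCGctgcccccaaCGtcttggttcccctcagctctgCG
The Gria4 window held 15 CG dinucleotides, the Grin1 window 25, and the Grin2c and Grin2d windows 11 each, against a median of 7 over the 33469 promoter windows of the table. The letters GGGCGG, known as the GC box, occurred on either strand in the Grin1 window and in neither the Gria4, the Grin2c nor the Grin2d window, and 33.1% of all windows held them.

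At 1 month no subunit probe was called. The 8 tested probes had log2 differences between STZ and control from -0.22 (SE 0.19, Gria4) to 0.28 (SE 0.39, Grin2b GE19832), each with a limma adjusted p of 0.99989 and none with an unadjusted p under 0.05. Over all tested probes 0.00908% were called (2 of 22025, with 927 at an unadjusted p under 0.05). The test of the study's methods, which does not assume equal variances, also called no subunit probe at 1 month, with 1 (Grin2b GE19832) at an unadjusted p under 0.05. The median over the 8 probes was -0.017, beside 0.013 for all tested probes. In each of the 10 probes the ranges of the 1M STZ and 1M Control arrays overlapped.

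At 3 months 5 of the 8 tested subunit probes were called, 2 higher in STZ (Gria2 and Grin2c GE19833) and 3 lower (Gria4, Grin2c GE21864 and Grin2a), and those called higher changed direction with the scaling as given below. Over all tested probes 50.5% were called higher and 3.55% lower at 3 months. The median log2 difference over the 8 subunit probes was 0.15, beside 0.44 for all tested probes, and 5 of the 8 lay below that shift. The test of the study's methods was run here on the scaling and filter given above, which differ from the study's own. Under it none of the 8 was called at 3 months, with 4 at an unadjusted p under 0.05 (Gria4, Grin1, Grin2a and Grin2c GE21864), against 3722 called of all tested probes. Gria4 was the 1 subunit probe whose STZ arrays all lay below all control arrays, which 0.681% of all tested probes did. No subunit probe had all STZ arrays above all control arrays, which 9.49% of all tested probes did.

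**Figure D1:**
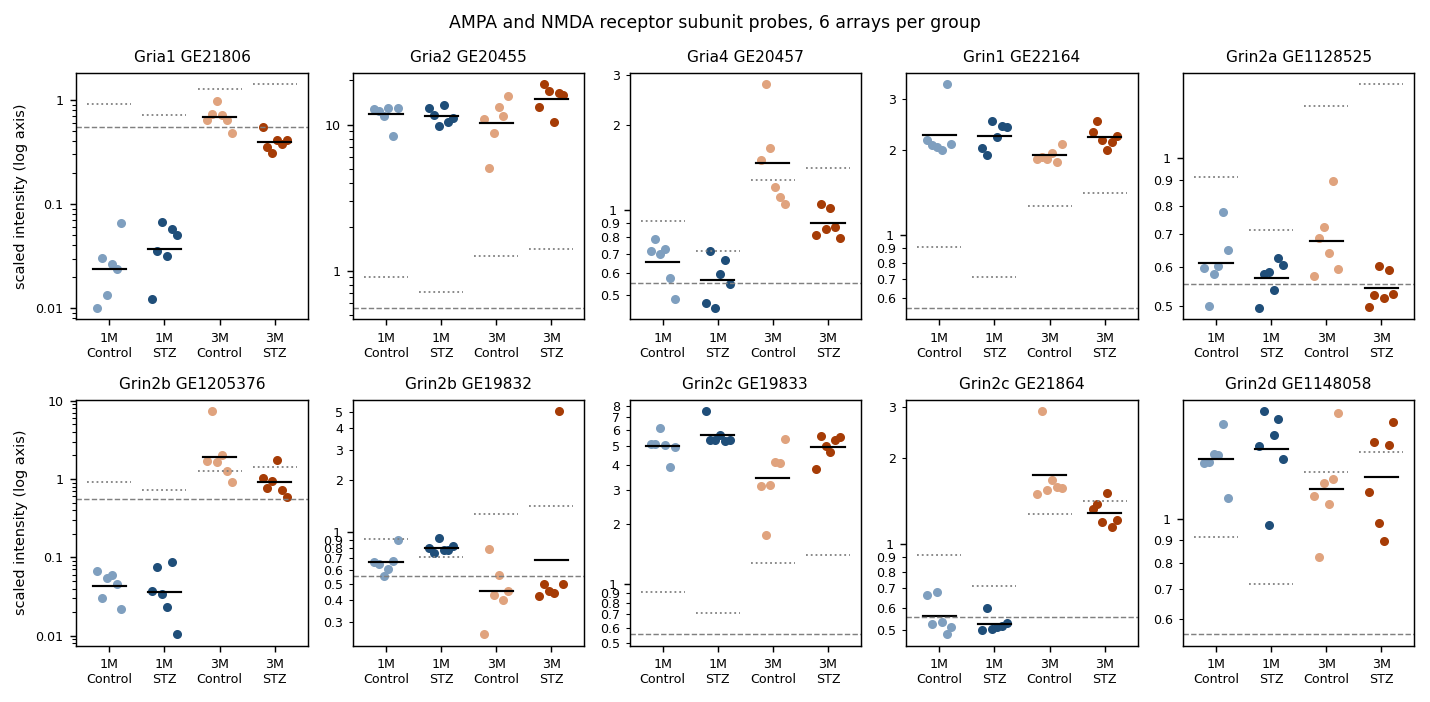
Scaled intensity (log axis) of the 10 subunit probes on each array, with 6 arrays per group as points, the mean of the log2 values as a black bar, the intensity limit of 0.554 as a dashed line and the median over the group's arrays of the 95th percentile of the bacterial probes as a dotted line. Gria2, Grin1 and Grin2c GE19833 lie above both lines on all 24 arrays, while Gria1 lies under the limit on all arrays but 5; values under 0.01 are drawn at 0.01.

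Among the AMPA receptor subunits, Gria2 encodes the subunit that makes the channel nearly impermeable to calcium once its transcript has been edited. Its scaled intensity was 8.41 to 13.0 in 1M Control (median 12.6), 9.72 to 13.7 in 1M STZ (median 11.3), 5.03 to 15.7 in 3M Control (median 11.2) and 10.5 to 18.8 in 3M STZ (median 16.2). The 3M STZ arrays lay mostly above the controls of that age, but the ranges overlapped, as did those of every neighbouring pair in the order of the 4 groups. The log2 difference at 3 months was 0.55 (SE 0.20, limma adjusted p = 0.0234), which turned to -0.050 after quantile normalization and -0.063 with no scaling and exceeded the shift of all tested probes by 0.11. Without the array 3M Control 2, which had the lowest value of its group, the difference was 0.35 with an adjusted p of 0.0832, and the call also ended without 3M Control 3 (0.51, 0.0529) or 3M STZ 2 (0.49, 0.0565).

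Gria4 encodes an AMPA subunit with fast kinetics. Its probe GE20457 read 0.484 to 0.789 in 1M Control (median 0.708) and 0.450 to 0.717 in 1M STZ (median 0.571). At 3 months it read 1.05 to 2.77 in control (median 1.35) and 0.799 to 1.05 in STZ (median 0.863). The 3 month groups did not overlap, although the lowest control array (1.049) and the highest STZ array (1.048) were nearly equal. Gria4 fell by 0.70 on the log2 scale in 3M STZ against 3M Control (SE 0.19, limma adjusted p = 0.00426), the largest fall of the 8 tested probes, and the difference was -1.08 after quantile normalization (adjusted p = 0.0014), -1.32 with no scaling (0.0328) and -1.15 relative to the shift of all tested probes. Without 3M Control 2 the difference was -0.52 (adjusted p = 0.0108). The call ended with array brightness (-0.43, adjusted p = 0.0925) or array spread (-0.44, 0.634) as a covariate and under the test of the study's methods (0.0699 after adjustment).

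Brightness limits what the Gria4 probe can show. It exceeded the intensity limit on 20 of 24 arrays. On 3 arrays, all 3M Control, it also exceeded the bacterial bound, the 95th percentile of that array's bacterial probes. The bacterial probes themselves had a median log2 difference of -0.25 between 3M STZ and 3M Control, with 40 of 62 lower in STZ, and their part in the Gria4 value was not tested.

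Gria1, which encodes an AMPA subunit found in calcium-permeable receptors, was near background. Its probe GE21806 read at most 0.0655 in 1M Control and 0.0666 in 1M STZ, 0.484 to 0.983 in 3M Control (median 0.677) and 0.312 to 0.545 in 3M STZ (median 0.397). It exceeded the limit on 5 of the 6 3M Control arrays and on none of the other 18 arrays, and on no array did it exceed the bacterial bound. Its 3M Control median was close to that of the bacterial probes (0.683), so no fold is given. A model of all 33849 rat probes did not call it at 3 months (limma adjusted p = 0.0779). That test cannot decide on a change, since no array exceeded the bacterial bound. The 3 month ranges overlapped, whereas both lay above those of the 1 month arrays, a step that the bacterial probes also show.

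Turning to the NMDA receptor, Grin1 encodes the obligatory glycine-binding GluN1 subunit. Its probe GE22164 read 1.99 to 3.39 in 1M Control (median 2.08), 1.92 to 2.52 in 1M STZ (median 2.31), 1.81 to 2.09 in 3M Control (median 1.88) and 1.99 to 2.52 in 3M STZ (median 2.20). It stood above the bacterial bound on all 24 arrays, and neighbouring groups overlapped throughout. The log2 difference was -0.0035 (SE 0.13) at 1 month and 0.22 (SE 0.13, limma adjusted p = 0.153) at 3 months, the latter 0.23 below the shift of all tested probes and -0.18 after quantile normalization. No change of Grin1 was called at either time. At 3 months its p was 0.00416 under the test of the study's methods (0.0496 after adjustment) and its adjusted p was 0.0173 with array weights, and in both the fold limit alone kept it from a call, its difference being 1.16-fold without weights.

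Grin2a encodes GluN2A, a GluN2 subunit of mature synapses. Scaled intensities of GE1128525 were 0.501 to 0.777 in 1M Control (median 0.601), 0.496 to 0.628 in 1M STZ (median 0.584), 0.577 to 0.897 in 3M Control (median 0.664) and 0.500 to 0.604 in 3M STZ (median 0.529). All 6 of the 3M Control arrays and 2 of the 6 3M STZ arrays exceeded the limit, no array exceeded the bacterial bound, and the ranges overlapped. Grin2a fell by 0.32 on the log2 scale at 3 months (SE 0.13, limma adjusted p = 0.0381), and the difference was -0.19 with an adjusted p of 0.377 after quantile normalization. Its medians at 3 months lay below those of the bacterial probes (0.683 in control and 0.557 in STZ), whose own median log2 difference was -0.25, so the value was measured at background level. This call ended on leaving out 3M Control 3 or 5 or 3M STZ 1, 2, 4 or 6, with differences from -0.24 to -0.31 and adjusted p from 0.0557 to 0.113. The paper counts GRIN2A among the genes altered on its arrays. By quantitative PCR it reports a decrease of GRIN2A at 3 months that was reproduced in independent rats.

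Grin2b encodes GluN2B, a GluN2 subunit abundant early in development, and its probes were dim on most arrays. GE19832 read 0.551 to 0.891 in 1M Control (median 0.657) and 0.750 to 0.916 in 1M STZ (median 0.795). At 3 months it read 0.253 to 0.795 in control (median 0.441) and 0.424 to 5.06 in STZ (median 0.473), where the array 3M STZ 5 had 5.06 and the other 5 lay between 0.424 and 0.496. The log2 difference of 0.60 at 3 months (SE 0.39, limma adjusted p = 0.189) was not called and was 0.020 without that array. It was called with array weights, at 1.04 (limma adjusted p = 0.0483). Under the alternatives that kept all arrays it ran from -0.11, with array spread as a covariate, to 1.66. The latter came from taking each array's 5th percentile off its values, and neither of these extremes was called. The second probe, GE1205376, read 0.0104 to 0.0864 over the 12 arrays of 1 month, 0.909 to 7.42 in 3M Control (median 1.67) and 0.586 to 1.77 in 3M STZ (median 0.854). It exceeded the bacterial bound on 5 of the 6 3M Control arrays and 1 of the 6 3M STZ arrays, and GE19832 did so on 7 arrays, 5 of them 1M STZ. Since its median over the 24 arrays lay under the limit GE1205376 was not tested, and in the model of all rat probes its difference at 3 months was -1.07 (SE 0.46, limma adjusted p = 0.0575). The Grin2b probes therefore differed in sign at 3 months, with neither called in the models of equal array weight. The 3 month medians of GE19832 (0.441 and 0.473) lay below those of the bacterial probes (0.683 in control and 0.557 in STZ). No direction is therefore given for Grin2b.

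Grin2c encodes GluN2C, which forms receptors with weak magnesium block, and its probes gave opposite calls. GE19833 read 3.88 to 6.12 in 1M Control (median 5.09), 5.29 to 7.53 in 1M STZ (median 5.36), 1.76 to 5.42 in 3M Control (median 3.63) and 3.82 to 5.58 in 3M STZ (median 5.17), above the bacterial bound on all 24 arrays. Its 3 month ranges overlapped, and the lowest control value belonged to 3M Control 2. The log2 difference at 3 months was 0.53 (SE 0.19, limma adjusted p = 0.0204), 0.087 above the shift of all tested probes, 0.081 after quantile normalization (adjusted p = 0.737), -0.084 with no scaling, and 0.34 without 3M Control 2 (adjusted p = 0.0685).

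The other Grin2c probe, GE21864, read 0.483 to 0.680 in 1M Control (median 0.530), 0.502 to 0.599 in 1M STZ (median 0.517), 1.50 to 2.92 in 3M Control (median 1.57) and 1.14 to 1.51 in 3M STZ (median 1.27). Only 3M STZ 4 (1.506) reached above the lowest control array (1.500), so the 3 month ranges overlapped at 1 array. The log2 difference was -0.44 (SE 0.15, limma adjusted p = 0.0159), -0.80 after quantile normalization (0.00204), -1.05 with no scaling (0.0437) and -0.29 without 3M Control 2 (0.0407). The call ended with array brightness (-0.28, adjusted p = 0.164) or array spread (-0.42, 0.590) as a covariate, in separate models of each time point (0.0517) and under the test of the study's methods (0.0857 after adjustment). It was above the bacterial bound on 8 arrays, all at 3 months. Both probes carry the same RefSeq accession, and the files used here give no probe sequence by which to tell which stretch of the transcript each binds.

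Grin2d encodes GluN2D, a subunit of slow, high-affinity receptors. GE1148058 read 1.12 to 1.63 in 1M Control (median 1.36), 0.969 to 1.74 in 1M STZ (median 1.49), 0.822 to 1.71 in 3M Control (median 1.16) and 0.895 to 1.64 in 3M STZ (median 1.31). All 4 groups overlapped. Neither the difference at 1 month (0.075, SE 0.18) nor that at 3 months (0.085, SE 0.18, limma adjusted p = 0.690) was called, and the latter was -0.027 after quantile normalization and -0.53 with no scaling.

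**Figure D2:**
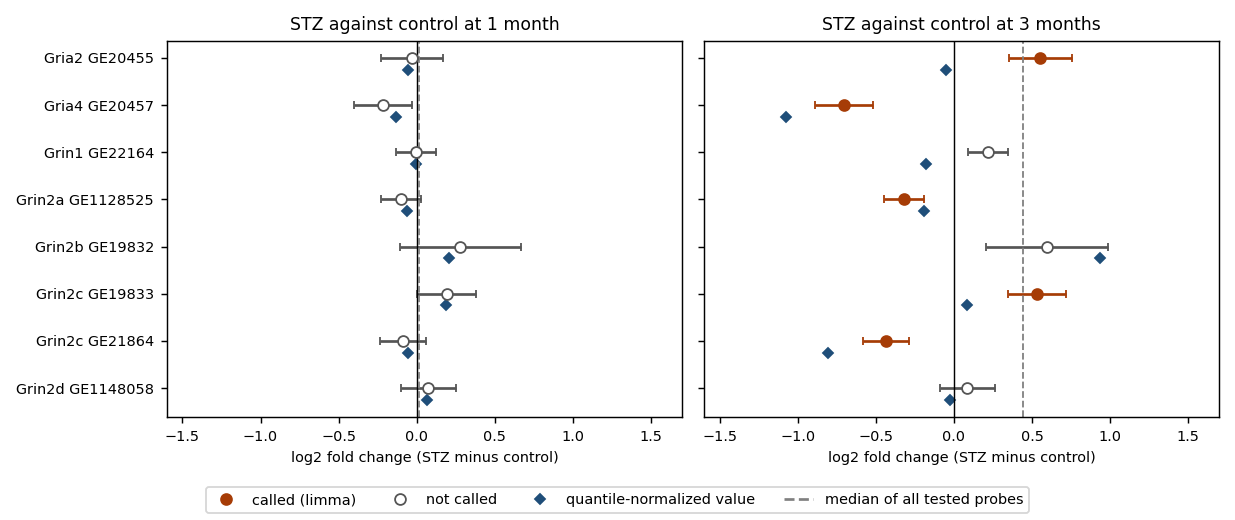
Log2 fold change between STZ and control of the 8 tested subunit probes at 1 month (left) and 3 months (right), circles with SE from limma (filled where called), diamonds after quantile normalization, and the median of all tested probes as a dashed line at 0.013 and 0.44. No probe is called at 1 month, and at 3 months Gria4 at -0.70 and Grin2c GE21864 at -0.44 stay below 0 after quantile normalization while Gria2 moves from 0.55 to -0.050.

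An interaction term compared the effect of STZ at the later time with that at the earlier time. None of the 8 subunit probes was called, whereas 15.5% of all tested probes were. The largest interactions were those of Gria2 (0.58, SE 0.28, limma adjusted p = 0.122) and Gria4 (-0.49, SE 0.27, adjusted p = 0.160), and Gria2 alone had an unadjusted p under 0.05. A difference between the time points was therefore not shown for any subunit.

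The subunit differences at 3 months varied with the brightness of their probes, with Grin2b GE19832 (0.60, SE 0.39) the dim probe that did not lie low. Its difference rested on the array 3M STZ 5 and was 0.020 without it. Tested probes with a median scaled intensity between the limit and 1 had a median log2 difference of 0.059, with 19.9% called higher and 12% called lower, and 4 of the 8 subunit probes fell there (Gria4, Grin2a, Grin2b GE19832 and Grin2c GE21864). For probes between 1 and 2, where Grin2d lay, the median was 0.35. It was 0.54 between 2 and 5, where Grin1 lay, 0.61 between 5 and 10, where Grin2c GE19833 lay, and 0.63 above 10, where Gria2 lay and 83.1% were called higher. Against these medians Gria2 and Grin2c GE19833, with 0.55 and 0.53, were close to other probes as bright, and Gria4, Grin2c GE21864 and Grin2a, with -0.70, -0.44 and -0.32, lay lower than others as dim.

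**Figure D3:**
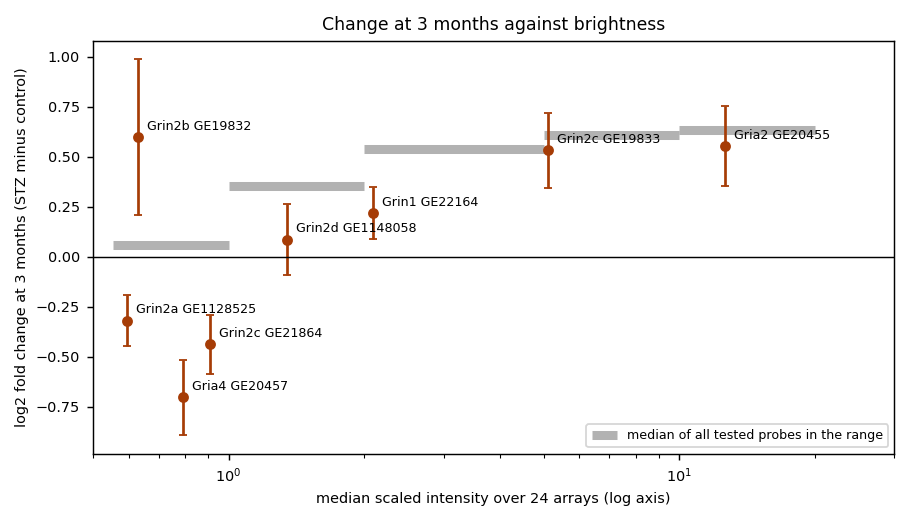
Log2 fold change at 3 months with SE (limma) of the 8 tested subunit probes against their median scaled intensity over 24 arrays (log axis), with the median of all tested probes in each brightness range as a grey bar (the bar above 10 is drawn to 20 and covers all brighter probes). Gria2 and Grin2c GE19833 lie near the bars at 0.63 and 0.61 (both differences were negative with no scaling), and Gria4 at -0.70 lies below the bar at 0.059.

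Within groups the subunit probes varied in opposite ways. After each group's mean was subtracted, the log2 values of Gria2 and Grin2c GE19833 had a Pearson correlation of 0.86 over the 24 arrays and those of Gria4 and Grin2c GE21864 one of 0.72, while Gria4 and Grin2c GE19833 had -0.63 and the Grin2c probes had -0.49 with each other. Of the 28 pairs 11 were positive. The array 3M Control 2 had the lowest value of its group for Gria2 (5.03) and Grin2c GE19833 (1.76). It had the highest for Gria4 (2.77) and Grin2c GE21864 (2.92), and the correlations were not repeated without it. The correlations are descriptions of arrays that share their scaling and brightness, and no test was made of them. Among 3141 probes with a symbol, the genes most like each subunit by the same measure were L1cam and Gfra2 for Gria2 (0.96 each), Gsk3a (0.84) and Glg1 (0.82) for Gria4, and Nat8 (0.82) and Trpm8 (0.79) for Grin1. They were Apom (0.71) and Bpifa2 (0.69) for Grin2a, Lpar1 (0.75) and Grik4 (0.55) for Grin2b GE19832, and Usf2 and Mecr (0.90 each) for Grin2d. For Grin2c they were Ece1 and Cyp26b1 (0.94 each) with GE19833, and Pfkfb3 and Bambi (0.87 each) with GE21864.

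The other genes of the glutamate synapse were described by 6 lists with 75 genes, of which 59 had a named probe and 44 were tested. At 1 month none was called. At 3 months 25 were called higher and 3 lower, near the 50.5% and 3.55% of all tested probes, with a median log2 difference of 0.53 beside 0.44. After quantile normalization 14 were called higher and 4 lower, beside 5413 and 1550 of the 22025 tested probes. The subunit probes, with 2 higher and 3 lower of 8, had a lower count and median, but the sets are unlike, since the lists hold the brightest tested probe of each gene and the subunits every tested probe, and the contrast was not tested.

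Of the other ionotropic subunits 3 of 9 were tested and 1 was called higher, and a different 1 after quantile normalization. Grik1, a kainate receptor subunit, had the highest value (0.72, SE 0.23, limma adjusted p = 0.0131, 0.44 and not called after quantile normalization) and Grik5 the lowest (0.10, SE 0.15). Among the AMPA receptor auxiliary proteins 2 of 3 tested were called higher, and 1 after quantile normalization. The highest was Nptx1, a neuronal pentraxin that clusters AMPA receptors (0.99, SE 0.22, adjusted p = 0.00109), and the lowest was Cacng5 (-0.49, SE 0.28, adjusted p = 0.133).

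Of the 16 tested scaffold and trafficking genes, 8 were called higher and 1 lower, and 6 and 1 after quantile normalization. Dlg3, which encodes the NMDA receptor scaffold SAP102, was the highest (1.51, SE 0.31, limma adjusted p = 0.000664), and Pick1, whose product binds Gria2 and Gria3 subunits and takes part in their removal from the surface, was the lowest (-0.57, SE 0.20, adjusted p = 0.0188). The directions of Dlg3 and Pick1 held after quantile normalization, at 2.13 and -0.78. The mean log2 scaled intensity of Dlg3 was -1.76 in 3M Control and -0.25 in 3M STZ. The 3M Control level lay below the intensity limit of 0.554, so the size of the Dlg3 difference rests on a group near background. Of the 8 tested kinases and signaling genes 7 were called higher and none lower, with 3 higher after quantile normalization, from Src, a tyrosine kinase that acts on NMDA receptors (1.26, SE 0.18, adjusted p = 4.32e-05), to Camk2g, a calmodulin kinase subunit (-0.10, SE 0.22, not called).

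Supply and clearance of the transmitters had 7 genes higher and 2 lower of 13 tested, but 2 higher and 3 lower after quantile normalization. Dao, the oxidase that degrades D-serine, was the highest (1.15, SE 0.21, limma adjusted p = 0.000329). Its mean log2 scaled intensity was -0.88 in 3M Control, below the intensity limit of 0.554, and 0.27 in 3M STZ. The size of the Dao difference therefore rests on a group near background. One of the genes called lower was the glutamate transporter Slc1a2 (-0.60, SE 0.17, adjusted p = 0.00573), named here after its value was seen. Of the RNA editing genes only Adarb1, which encodes the deaminase that edits the Gria2 transcript, was tested (0.19, SE 0.14, adjusted p = 0.246), and it was called after quantile normalization (0.45).

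**Figure D4:**
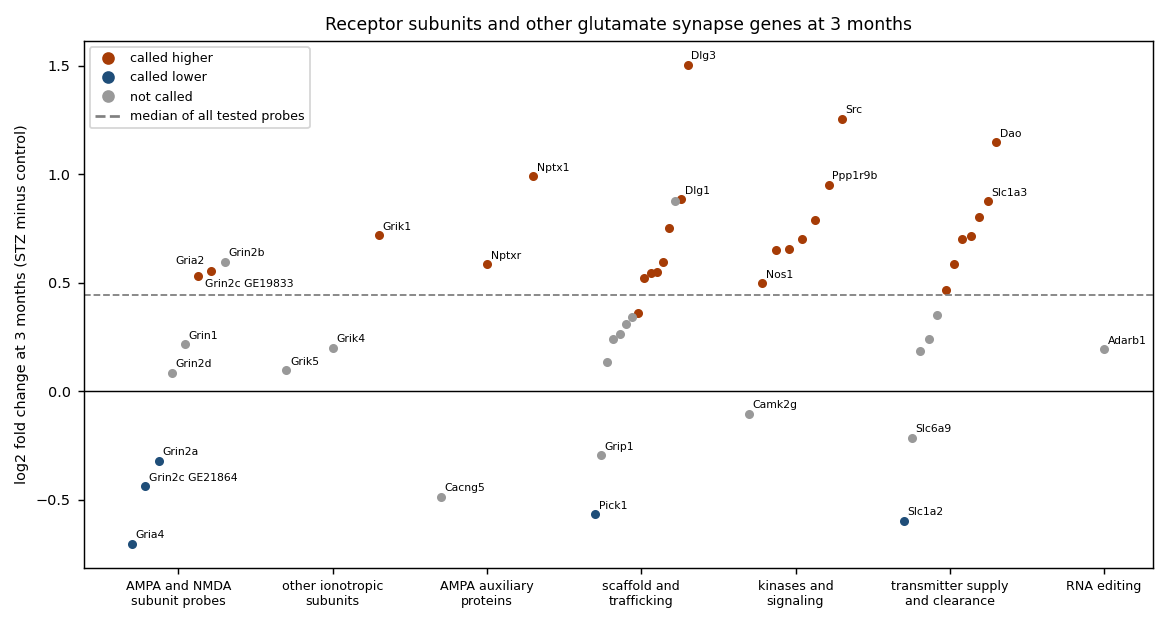
Log2 fold change at 3 months (STZ minus control) of the 8 tested subunit probes and of the tested genes in 6 lists of glutamate synapse genes (1 of the 44 is not shown), each point a probe, coloured by the limma call, with the median of all tested probes (0.44) as a dashed line and the outermost genes shown of each list named. Dlg3 at 1.51, with a 3M Control mean below the intensity limit, is the highest point and Gria4 at -0.70 the lowest of those shown.

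Markers of the neurons that carry these receptors were also measured at 3 months, when 50.5% of all tested probes were called higher. Of the amacrine cell markers 8 of 10 had a probe and 7 were tested (Gad2 was under the limit). Of these 6 were called higher, while after quantile normalization none was called higher and 1 lower. Their summed scaled intensity was 28.0 to 80.2 in 3M Control and 60.2 to 99.8 in 3M STZ. Of the ganglion cell markers 7 of 11 had a probe, 6 were tested (Thy1 was under the limit) and 4 were called higher and none after quantile normalization, with sums of 20.1 to 43.6 and 32.9 to 54.2, and for the horizontal cell 1 of 2 tested markers (Onecut1) was called lower, with sums of 2.59 to 6.50 and 2.25 to 2.91.

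Markers of other cells were called higher to different extents, against the same 50.5% of all tested probes. Lens genes, with 4 of 5 tested called higher, had summed scaled intensities of 64.7 to 114.9 in 3M Control and 139.6 to 332.5 in 3M STZ. Müller glia and astrocyte markers, with 4 of 6 tested higher and Aqp4 under the limit, had 48.7 to 137.3 and 135.7 to 183.2. Microglia and leukocyte markers, with 3 of 4 tested higher and Ptprc and Cx3cr1 under the limit, had 5.27 to 8.69 and 8.57 to 13.4. Of the rod markers 2 of 7 tested were called higher, of the erythrocyte markers 1 of 2 and of the retinal pigment epithelium markers none of 2. After quantile normalization 3 rod markers were called lower, where 5413 of the 22025 tested probes were called higher and 1550 lower. The cone, bipolar and endothelial lists had 1, 1 and 2 tested markers, all called higher and none after quantile normalization. Still called higher after it were 3 lens, 3 Müller glia and astrocyte, 3 microglia and leukocyte and 1 erythrocyte markers. The part of these cells in the subunit values was not tested.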

How the data were processed

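Total RNA from whole retina was amplified to biotin-labelled cRNA and hybridized to CodeLink rat whole genome arrays, 6 rats to a group in 4 groups and each rat on an array of its own, per the labels. The authors scanned the arrays and computed spot intensities with the CodeLink software, excluded spots outside the maker's specification, subtracted the local background and normalized each array within itself. The deposited columns hold, on a linear scale, the intensity after background subtraction, used here, and a normalized form of it, a ratio to nearly the array median, used as an alternative. The software's spot flags were not used here, and the genome build and scan dates are not given in the sources used here. On 3 arrays 1 probe had no value.

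Each array's intensities were divided by their median over the 33849 rat probes, raised to 0.01 where smaller, and converted to log2. Rat probes with a median scaled intensity above 0.554 (35th percentile over all probes) and at least 4 values per group were tested (22025). Groups were compared in 1 linear model of the 4 groups with limma 3.58.1 in R 4.3.3, and the model was tested on simulated data. The number of arrays and the signal over background limit precision: the median intensity of an array before scaling was 124 to 360 in 1M Control, 156 to 303 in 1M STZ, 149 to 308 in 3M Control and 125 to 164 in 3M STZ. The labels call the 6 samples of a group biological replicates. The study's text counts fewer animals than that in places, and all labelled arrays were used.

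Symbols came from 5469 RefSeq accessions on the array, of which 4674 matched a current gene. Named were all subunit probes, the highest and lowest tested gene of each list and, for each subunit, the 2 symbols with the most similar values, and 2 genes of the lists are not reported here, though counts include them. In the lists each gene was represented by its tested probe with the highest mean level. The subunits and gene lists were chosen with earlier results of these data known. Alternatives were the test of the study's methods, with variances not assumed equal (p under 0.01 and 1.2-fold) and with adjustment, separate models, other normalizations, filters and floors, array weights, array covariates, the replicate number as a block and leaving out each array.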

Additional observations from a re-analysis of the deposited data

Results flagged for a closer look

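The 40 groups of 6 arrays formed by the 10 subunit probes were checked for outliers on the log2 scale. Of these, 6 held an array whose gap to the nearest value, as a share of the group's range, exceeded Dixon's 95% critical value. Chance flags about 1 in 20. The readings below are scaled intensities, to which the rule was not applied. On that scale 3M Control 2 also lay apart for Gria4 (2.77, next 1.65) and Grin2b GE1205376 (7.42, next 2.03). Gria2 read 8.41 on 1M Control 5 and at least 11.5 on the other arrays of the group, and Grin1 read 3.39 on the same array and at most 2.16 on the others. Grin2b GE19832 read 5.06 on 3M STZ 5, with the next value at 0.496. Grin2c GE19833 read 7.53 on 1M STZ 1, with the next at 5.65. Grin2c GE21864 read 0.599 on 1M STZ 2, with the next at 0.530, and 2.92 on 3M Control 2, with the next at 1.68.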

How the results depend on the processing

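No subunit probe was called at 1 month under any alternative. The 5 subunit calls at 3 months became 0 under the test of the study's methods (3722 calls over all probes at unadjusted p, 1921 after adjustment), 0 with array spread as a covariate (0 over all probes), 0 with array brightness as a covariate (4058), 1 (Gria4) in separate models, 2 lower under quantile normalization over all arrays (6963) or within each time point (5578), 2 higher where probes had to exceed the limit on all 24 arrays (9155) or the 95th percentile of the bacterial probes (10005), which left 4 subunit probes in the fit, and 3 lower with no scaling (970), an alternative chosen after seeing the data. Gria2 turned to -0.050 and -0.054 under the quantile settings, -0.10 with the spread covariate and -0.063 with no scaling, and Grin2c GE19833 to -0.090 with the spread covariate and -0.084 with no scaling. The median of the subunit probes at 3 months was -0.11 and -0.090 under the quantile settings, -0.12 with no filter, 0.37 under both stricter filters, -0.16 with the spread covariate and -0.47 with no scaling, and at 1 month -0.30 with no scaling. Array weights gave 6 calls at 3 months (3 higher and 3 lower, with Grin2b GE19832 added) and 2 interactions. Subtracting the 5th percentile of each array gave 4 calls at 3 months (1 higher and 3 lower), as Gria2 had 0.50 with an adjusted p of 0.0609. Leaving out each array gave 3 to 5 calls at 3 months (3 without 3M Control 2, 3M Control 3 or 3M STZ 2), medians of 0.029 to 0.22 at 3 months and -0.040 to 0.040 at 1 month, and 0 to 1 interactions (1 without 3M Control 6). Gria4, Grin2c GE21864 and Grin2a stayed lower in STZ under every alternative that fitted them, though each lost its call under some. Apart from the stricter filters, the cause of these changes was not tested.

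Same-numbered arrays of STZ and control deviated from their group means with correlations of -0.24 to 0.25 (5 of 12 over 0.1), so the numbers were not taken as pairing. With the replicate number as a block 4 subunit probes were called at 3 months, as Grin2a had an adjusted p of 0.0524, and 0 at 1 month.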
